A study of Mus musculus with 35 samples.

Results

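Lymphoid tumours labelled as arising in mice with both a Myc and a Bcl6 transgene (3 arrays) were compared with lymphoid tumours labelled as arising in Bcl6 mice (4 arrays), by the titles of the samples. These 7 arrays belong to a set of 35 mouse arrays, which also holds 22 arrays of sorted normal B-lineage cells and 6 arrays of tumours lacking Lig4 and p53. RNA of whole tumour tissue was measured on Affymetrix Mouse 430A2 arrays, and every value is a log2 probe set intensity, so that a difference of 1 is a 2-fold difference. The Bcl6 tumours carry the genotype label Bcl6 knock-in and the strain label Bcl6 transgenic, and the other group carries the genotype label Bcl6/Myc dual-transgenic. Both groups are thus labelled with an added Bcl6 gene, and a Myc transgene is named for the dual-transgenic group alone. These labels do not state whether the Bcl6 allele is the same in both groups. In the published Bcl6 line the Bcl6 coding sequence is driven from the immunoglobulin heavy chain locus, which restricts it to the B lineage. The labels do not state what drives the Myc transgene, nor age, sex, the organ sampled, or whether an array is 1 mouse or a pool. P-values therefore measure a spread between arrays, which may be technical. In the main fit this spread is pooled within groups over all 35 arrays.

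Myc is a transcription factor that drives ribosome production, metabolism and cell division, and it is deregulated in many B-cell lymphomas. Bcl6 is a repressor that B cells need to form germinal centres, the sites where activated B cells divide and mutate their antibody genes, and it holds back their exit towards plasma cells. B cells also present antigen to helper T cells on MHC class II molecules. These are assembled around the invariant chain Cd74, loaded with peptide by H2-DM under control of H2-O, and switched on by the coactivator Ciita.

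The genes named in the labels were examined first. The single Myc probe set read 5.11, 5.41 and 4.93 in Myc/Bcl6-labelled replicates 1, 2 and 3, and 6.80, 5.77, 6.92 and 7.19 in Bcl6 tumour replicates 1 to 4. All 3 Myc/Bcl6-labelled arrays were thus below all 4 Bcl6 arrays, but the difference of -1.52 ± 0.72 (log2 difference ± SE, as throughout) did not pass (limma adjusted p = 0.245). The same probe set read 10.10 to 11.31 in the Lig4/p53 tumours and 7.75 to 10.23 in sorted germinal centre B cells. Whether it reads the transgene is not given in the sources used here, so it does not check the label, and the arrays are called Myc/Bcl6-labelled throughout. Bcl6 read 4.18, 6.76 and 9.10 in the Myc/Bcl6-labelled arrays and 6.23, 7.13, 6.79 and 8.52 in the Bcl6 tumours. The groups overlapped fully (-0.48 ± 0.80, adjusted p = 0.796), and the sign changed when the 2 Bcl6 probe sets were averaged (0.01). Germinal centre B cells had 10.63 to 11.57, above all 7 tumours on this probe set. Whether the Bcl6 probe sets read the added Bcl6 gene is not given either. These values therefore do not compare total Bcl6 between the groups or with germinal centre cells. Mycn, a relative of Myc, read 7.02, 6.77 and 7.00 against 6.05, 6.55, 5.09 and 5.27, and Max, the partner both need to bind DNA, read 5.47, 4.76 and 4.87 against 6.26, 5.50, 7.13 and 7.18. Neither passed (Mycn 1.19 ± 0.36, adjusted p = 0.0533; Max -1.49 ± 0.75, adjusted p = 0.283). For each the 2 groups of arrays did not overlap, as for Myc and for 1071 of all 12393 genes (8.64%). With the mean of all its probe sets Mycn differed by 0.54 (adjusted p = 0.199).

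All 4 markers used to check the tumours (Cd74, Ciita, Ptprc and Ighm) were lowest in Myc/Bcl6-labelled replicate 1. Ptprc (CD45), the phosphatase on all white blood cells, read 7.12 in Myc/Bcl6-labelled replicate 1 and 10.47 to 11.69 in the other 6 arrays. Ms4a1 (CD20), a B-cell surface protein, read 4.39 there and 7.79 to 11.55 in the others. The mean over 20 measured B-lineage genes was 5.71 in that array and 7.55 to 8.32 in the other 6. Cd79a, a defining chain of the B-cell receptor, was dim in all 7 tumours (5.50 to 7.54) beside 9.73 to 11.03 in Lig4/p53 tumours and 10.31 to 11.34 in germinal centre cells. Myc/Bcl6-labelled replicate 1 is therefore described below as an array that lacks most B-lineage transcripts at the levels of the others, and results that rest on it are given without it as well.

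Other tissues also differed between arrays. Myc/Bcl6-labelled replicate 2 carried liver transcripts: the mean of 14 measured hepatocyte genes was 11.48 there and 3.37 to 4.74 in the other 6 arrays. Albumin (Alb) read 13.99 in that array and 3.26 to 5.46 elsewhere. Bcl6 tumour replicate 4 was high in granulocyte genes, with a list mean of 8.84 against 3.51 to 5.98 and myeloperoxidase (Mpo) at 11.09 against 3.63 to 6.69. Erythroid genes were highest in Myc/Bcl6-labelled replicate 3, with a list mean of 6.19 against 3.62 to 4.95. Macrophage transcripts were present in every tumour, as C1qb, a complement chain, read at least 11.86 in all 7 arrays and 6.89 to 9.29 in the Lig4/p53 tumours. T-cell genes had list means of 4.46, 4.54 and 5.50 against 5.36, 5.14, 5.37 and 5.94, and follicular stromal genes 5.73, 6.06 and 7.46 against 6.93, 7.03, 8.30 and 7.30. In whole tumours, fewer cells of a type and less RNA per cell cannot be told apart. The part of these cell types in the differences below was not tested, apart from the values without single arrays. The spread of values within an array was also narrower in Bcl6 tumour replicate 2 (interquartile range 2.15) and in the Myc/Bcl6-labelled arrays (2.33 to 2.85) than in the other Bcl6 tumours (3.25 to 3.78). A sign of RNA shortening, the excess of 3' over 5' probe sets for the control genes Actb and Gapdh, was 3.23 to 4.70 in the Myc/Bcl6-labelled and 3.65 to 4.60 in the Bcl6 arrays. It was 2.25 to 3.64 in Lig4/p53 tumours and 0.68 to 1.55 in germinal centre cells. The interquartile ranges of those 2 groups were 3.74 to 4.23 and 3.95 to 4.14. Levels set beside those groups in this text are therefore not matched for RNA quality or spread, whose part was not tested.

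**Figure D1:**
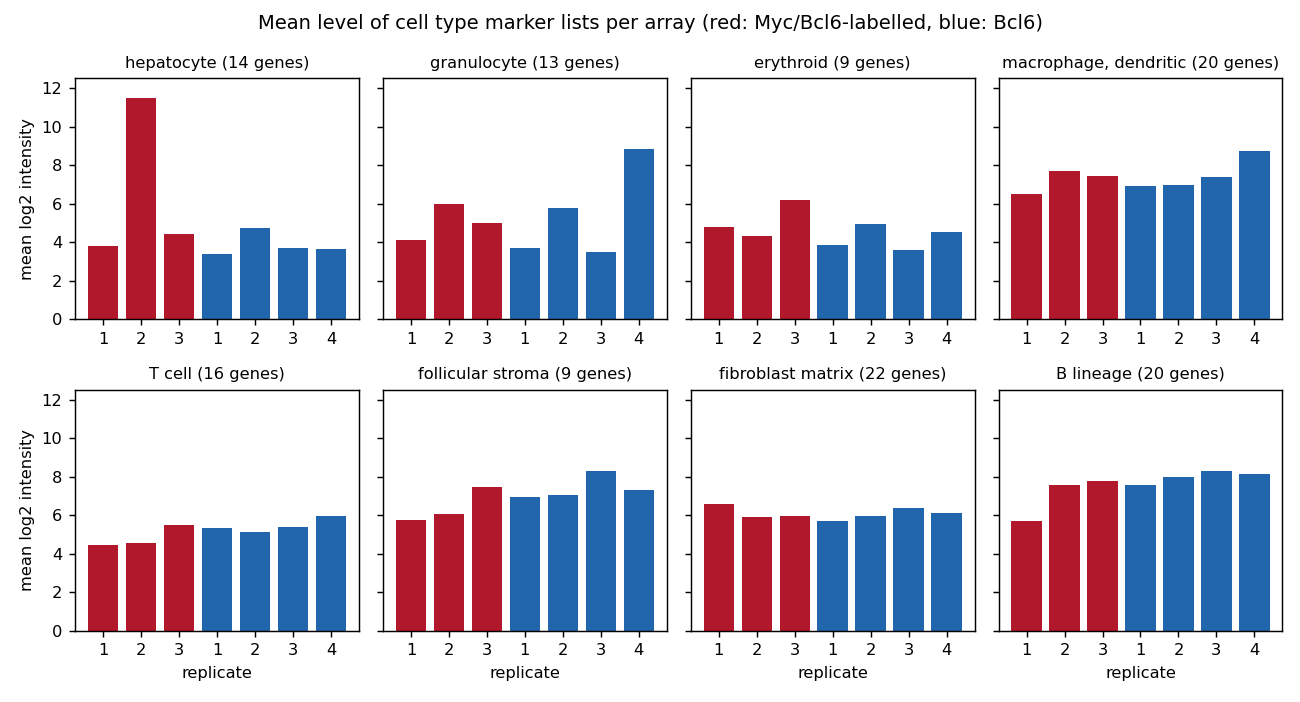
Each panel plots the mean log2 intensity of the measured genes of 1 cell type list (y axis) in each of the 7 arrays (x axis, replicate number), with Myc/Bcl6-labelled arrays in red and Bcl6 tumours in blue. Hepatocyte genes stand out in Myc/Bcl6-labelled replicate 2 (11.48) and granulocyte genes in Bcl6 tumour replicate 4 (8.84), and B-lineage genes are lowest in Myc/Bcl6-labelled replicate 1 (5.71).

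The comparison asks what distinguishes the tumours of the doubly transgenic label from those of the Bcl6 label. In the Myc/Bcl6-labelled arrays 7 of 11 MHC class II genes, 6 of 9 class I genes and 5 of 16 NF-kB genes were called lower, although fewer were without some single arrays. Where list members are said to fall or rise, only those called at an adjusted p under 0.05 are counted. Of 14 hepatocyte genes 4 rose, and none without replicate 2, while genes such as Meg3 were high in all 3 arrays. Of 12393 genes, limma fitted on all 35 arrays called 484 (3.91%) at an adjusted p under 0.05, of which 240 (1.94%) were higher and 244 (1.97%) lower in the Myc/Bcl6-labelled group (n = 3 and 4). The median difference over all genes was 0.03, and 2327 of the 12393 genes had an unadjusted p under 0.05. For 1071 genes (8.64%) the arrays of the 2 groups did not overlap, 607 of them (4.9%) higher and 464 (3.74%) lower; 296 genes (2.39%) were both called and free of overlap. The calls rest on the spread pooled over all groups, and the spread differed between groups. The median SD of a gene was 0.64 in the Myc/Bcl6-labelled and 0.612 in the Bcl6 arrays, beside 0.338 in Lig4/p53 tumours, 0.74 and 0.824 in pro-B and pre-B cells and 0.251 to 0.399 in the other 4 normal groups. With the spread of the 7 arrays alone limma called 0 genes (1218 at an unadjusted p under 0.05, smallest adjusted p = 0.427), and with that of the 13 tumour arrays it called 104 genes (0.839%; 26 higher, 78 lower). Counts of calls also moved by over 1.5 times with single arrays: 119 without Bcl6 tumour replicate 3, 136 without replicate 4, 1386 without replicate 2, 234 without Myc/Bcl6-labelled replicate 2 and 780 without replicate 3. Of 66 called genes named here, 21 were called whichever of the 7 arrays was left out. When arrays were set to equal medians and interquartile ranges, 64% of 475 calls were higher instead of 49.6%, with an all-gene median of 0.17; with array weights 30% of 660 calls were higher.

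**Figure D2:**
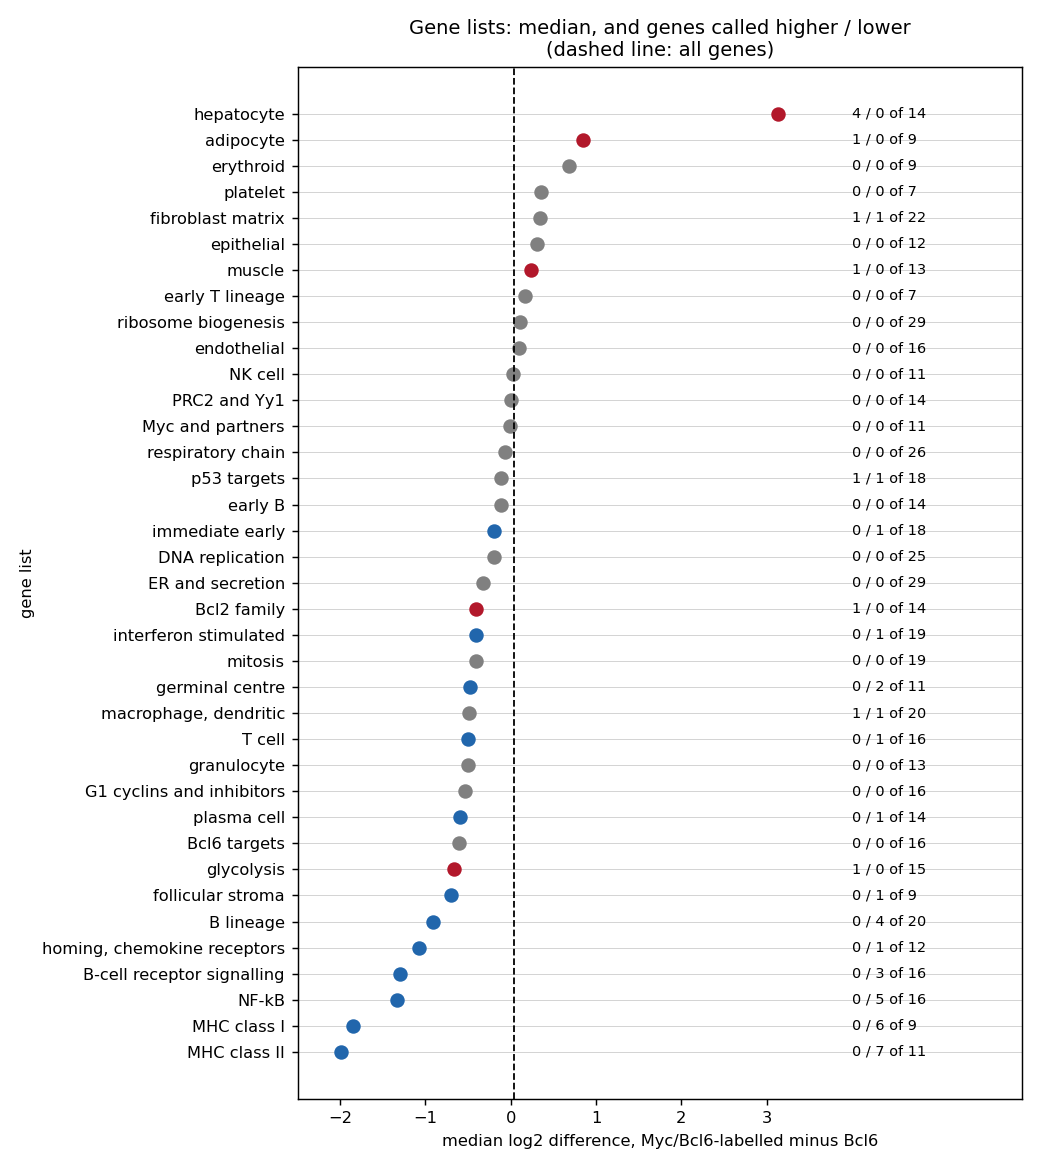
Each point is the median log2 difference, Myc/Bcl6-labelled minus Bcl6 tumours (x axis), over the measured genes of a list (y axis). The figures on the right count members called higher / lower of those measured, points are coloured blue where more members were called lower, red where more were called higher and grey otherwise, and the dashed line is the all-gene median (0.03). MHC class II (-1.996) and class I (-1.85) lie lowest and hepatocyte genes (3.13) highest.

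MHC class II genes were lower in the Myc/Bcl6-labelled arrays. Of 11 measured, 7 were called lower and 0 higher, where 1.97% of all genes were called lower. By sign alone 10 were lower and 1 higher, and their median difference was -1.996 beside 0.03 for all genes. The invariant chain Cd74 read 8.08, 9.71 and 11.29 in the Myc/Bcl6-labelled arrays and 12.67, 12.03, 12.71 and 12.84 in the Bcl6 tumours. Every Myc/Bcl6-labelled array was below every Bcl6 array, and the difference of -2.87 ± 0.46 is a 7.32-fold lower mean (adjusted p = 0.00191). Lig4/p53 tumours read 11.40 to 12.44 for Cd74, above all 3 Myc/Bcl6-labelled arrays. This did not hold for the list. The mean of the 11 genes was 6.72, 7.96 and 8.99 in the Myc/Bcl6-labelled arrays and 8.43 to 9.31 in Lig4/p53 tumours, with replicate 3 inside that range. The beta chain gene H2-Ab1 read 6.28, 8.81 and 10.02 against 11.14, 10.87, 11.85 and 12.22 (-3.15 ± 0.55, 8.89-fold, adjusted p = 0.00225). H2-Eb1, the other beta chain, read 6.83, 8.34 and 9.73 against 10.65, 9.84, 11.05 and 11.50 (-2.46 ± 0.45, adjusted p = 0.00269). Both showed the same order within the group as Cd74, lowest in replicate 1 and highest in replicate 3. The alpha chain gene H2-Aa read 7.96, 10.01 and 12.25 against 12.11, 11.81, 12.14 and 12.22 (-1.996 ± 0.50, adjusted p = 0.0213). On this probe set replicate 3 was as high as the Bcl6 tumours and the other two were lower. The second, dimmer H2-Aa probe set read 3.43, 6.02 and 6.74 against 8.65, 6.97, 8.84 and 9.31 (difference -3.05), with replicate 3 below all 4 Bcl6 tumours as well.

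The regulators and accessory genes did not all follow. Ciita, the coactivator of the class II genes, read 3.63, 4.80 and 6.13 against 7.14, 6.75, 8.44 and 8.01 (-2.73 ± 0.59, 6.65-fold, adjusted p = 0.0084). On this probe set the arrays did not overlap, and replicate 3 lay within the range of Lig4/p53 tumours (5.42 to 6.56) while the other two were below it. The second Ciita probe set read 3.86, 5.08 and 6.14 against 5.28, 5.21, 6.04 and 5.24, where the groups overlapped (-0.42), and the mean of both differed by -1.58 (adjusted p = 0.0354). H2-Oa, which restrains peptide loading, read 3.20, 5.04 and 5.75 against 7.21, 6.46, 7.84 and 6.82 (-2.42 ± 0.56, adjusted p = 0.014), and the protease Ctsh 7.73, 9.69 and 9.34 against 10.44, 9.37, 10.93 and 10.87 (-1.48 ± 0.40, adjusted p = 0.0334). H2-DMb2, a chain of the peptide loader, read 5.47, 5.74 and 6.57 against 5.23, 6.48, 4.83 and 4.52 and did not pass (0.66 ± 0.49, adjusted p = 0.512). It was dim in all 7 tumours beside germinal centre cells (9.11 to 10.67). The invariant chain protease Ctss (-1.37 ± 0.45, adjusted p = 0.0759), H2-DMa (-1.30 ± 0.62, adjusted p = 0.251) and the reductase Ifi30 (-0.84 ± 0.47, adjusted p = 0.352) did not pass either. Of the 11 genes 4 were called without Bcl6 tumour replicate 3 and 4 without Myc/Bcl6-labelled replicate 1 (median -1.04 without the latter). Cd74, H2-Ab1, H2-Eb1 and Ciita were called whichever array was left out, with adjusted p values up to 0.0492 (Ciita). H2-Oa was not called without Bcl6 tumour replicate 3 (adjusted p = 0.063) or Myc/Bcl6-labelled replicate 1 (0.0862), and H2-Aa and Ctsh were each lost without any of 4 arrays (adjusted p = 0.0616 to 0.189 and 0.0618 to 0.22). With equal medians and interquartile ranges only Ciita and H2-Oa stayed called, and Cd74 had -2.17 (adjusted p = 0.321). Without Myc/Bcl6-labelled replicates 1 and 2, the array with few B-lineage transcripts and the array with liver transcripts, 0 of 11 were called by limma (2 at an unadjusted p under 0.05) and Cd74 differed by -1.28 (adjusted p = 0.212).

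**Figure D3:**
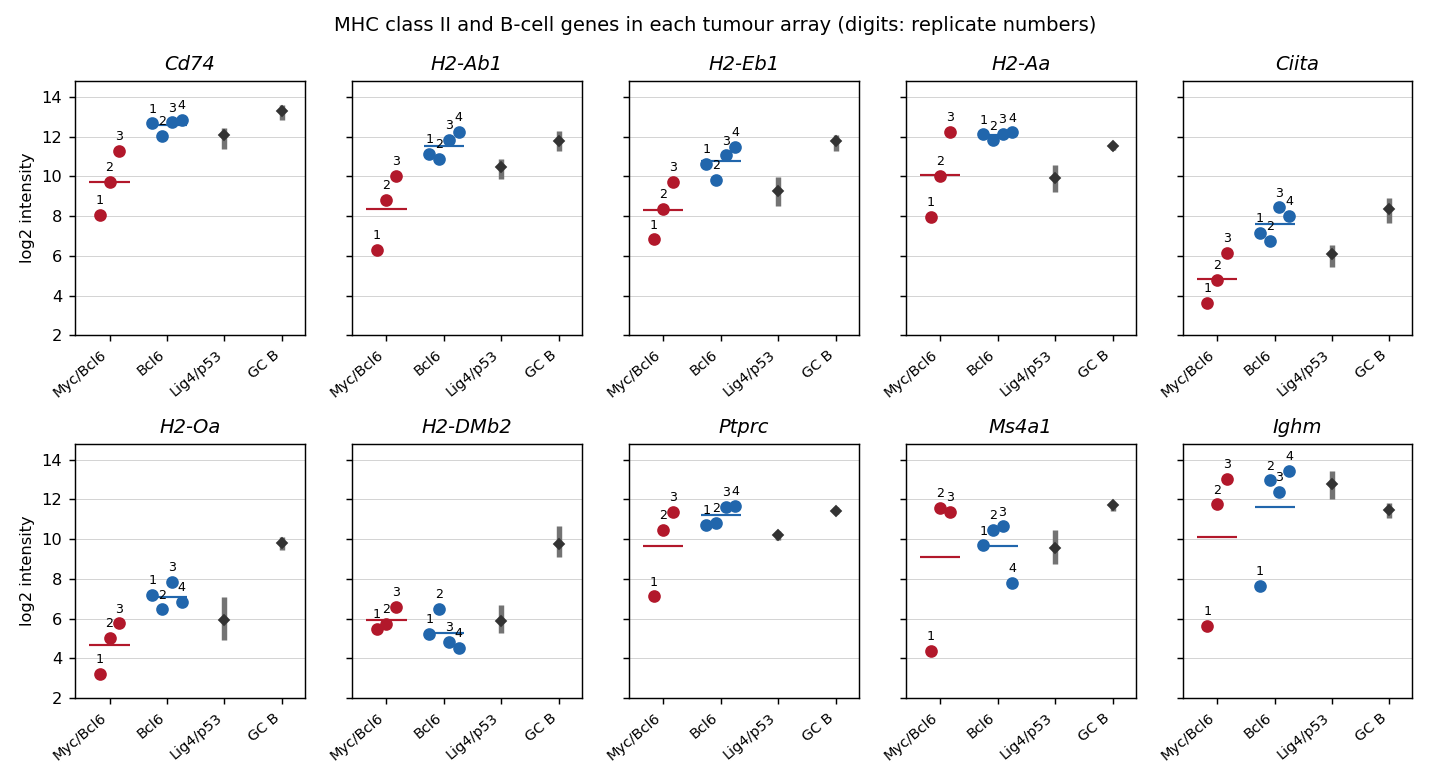
Each panel plots the log2 intensity (y axis) of 1 gene in every Myc/Bcl6-labelled (red) and Bcl6 (blue) array, with replicate numbers beside the points and a line at the group mean; grey bars span the lowest to highest Lig4/p53 tumour (n = 6) and germinal centre B-cell array (n = 5), with the mean as a diamond. Cd74, H2-Ab1, H2-Eb1, Ciita and H2-Oa of the 3 Myc/Bcl6-labelled arrays lie below all 4 Bcl6 arrays, H2-Aa of replicate 3 does not, and Ptprc and Ms4a1 are low in replicate 1 alone.

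Class II promoters carry a shared set of short boxes just before the gene start, of which the Y box (core TGATTGG, bound by NF-Y) is the most easily read. Of the 11 measured genes, 7 had a promoter in the RefSeq table (GRCm38.p6, 250 bases before to 50 after the gene start), and 4 of these held TGATTGG on either strand, a motif chosen after the sequences had been looked at. Among all 32851 promoters listed there, 2568 (7.82%) held it. The 4 promoters are printed on the gene's strand with the Y box core in capitals, because 3 of the genes fell (H2-Aa, H2-Eb1, H2-Oa) and 1 with the same core did not pass (H2-DMb2). They lie at chr17:34287774-34288073 (minus strand), chr17:34305617-34305916 (plus), chr17:34092129-34092428 (plus) and chr17:34144999-34145298 (plus). The core starts 50, 61, 45 and 92 bases before the gene start, respectively. A match is a description of these letters and shows no binding.
H2-Aa: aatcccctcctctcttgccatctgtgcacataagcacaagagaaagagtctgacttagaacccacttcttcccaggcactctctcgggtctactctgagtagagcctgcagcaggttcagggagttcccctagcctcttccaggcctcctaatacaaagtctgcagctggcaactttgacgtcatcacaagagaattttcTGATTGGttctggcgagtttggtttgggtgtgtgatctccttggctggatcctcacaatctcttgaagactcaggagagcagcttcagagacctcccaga
H2-Eb1: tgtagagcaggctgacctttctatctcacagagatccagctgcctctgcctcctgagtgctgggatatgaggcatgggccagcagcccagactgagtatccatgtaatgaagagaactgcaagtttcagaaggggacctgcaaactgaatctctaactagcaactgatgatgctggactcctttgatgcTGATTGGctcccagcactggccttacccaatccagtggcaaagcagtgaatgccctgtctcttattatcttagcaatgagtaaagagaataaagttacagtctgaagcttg
H2-Oa: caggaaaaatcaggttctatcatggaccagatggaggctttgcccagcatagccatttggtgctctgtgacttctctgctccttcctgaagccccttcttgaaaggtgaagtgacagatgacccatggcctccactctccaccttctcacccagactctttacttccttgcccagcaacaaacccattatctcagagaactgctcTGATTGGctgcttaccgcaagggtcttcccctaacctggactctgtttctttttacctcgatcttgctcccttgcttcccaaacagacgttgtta
H2-DMb2: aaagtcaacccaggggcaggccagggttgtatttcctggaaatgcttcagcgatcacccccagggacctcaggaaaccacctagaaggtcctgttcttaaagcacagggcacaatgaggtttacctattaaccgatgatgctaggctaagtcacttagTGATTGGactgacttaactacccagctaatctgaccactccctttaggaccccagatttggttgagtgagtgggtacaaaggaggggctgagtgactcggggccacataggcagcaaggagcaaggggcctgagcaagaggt

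Genes of MHC class I presentation were lower as well, with 6 of 9 measured called lower, 0 higher and a median of -1.85. Of all genes 1.97% were called lower. Psmb9, an immunoproteasome subunit, read 6.63, 6.76 and 7.63 against 9.68, 7.42, 9.53 and 9.73 (-2.08 ± 0.45, adjusted p = 0.00836). Bcl6 tumour replicate 2 lay within the Myc/Bcl6-labelled range for this gene, and the call held without any single array (highest adjusted p = 0.0449). The class I heavy chain genes H2-K1 (8.36, 10.88 and 9.88 against 11.46, 10.82, 11.98 and 11.95) and H2-D1 (8.13, 10.30 and 9.31 against 11.04, 9.65, 11.54 and 11.67) fell by 1.85 ± 0.43 (adjusted p = 0.014) and 1.73 ± 0.44 (adjusted p = 0.0229) on the log2 scale. The peptide transporter subunit Tap2 read 5.28, 5.37 and 5.62 against 7.45, 5.25, 7.87 and 8.50 (-1.85 ± 0.46, adjusted p = 0.0213), while Tap1, whose arrays did not overlap, missed the threshold (-2.13 ± 0.67, adjusted p = 0.0649; -0.28, adjusted p = 0.612, with the mean of its probe sets). Tapbp (-1.92 ± 0.51, adjusted p = 0.0294; -1.19 with the mean of its probe sets) and Psmb8 (-1.82 ± 0.47, adjusted p = 0.0268) also fell, and the light chain B2m did not pass (-0.69 ± 0.32, adjusted p = 0.225), but did with the mean of its probe sets (-1.15, adjusted p = 0.0478). Each of the 5 calls other than Psmb9 was lost without 3 to 5 of the 7 arrays, with adjusted p values of 0.0547 to 0.168. The count of 6 was 1 without Bcl6 tumour replicate 3 or replicate 4 and 3 without Myc/Bcl6-labelled replicate 1. With equal medians and interquartile ranges limma called 0 of 9 (3 at an unadjusted p under 0.05).

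B-lineage genes were less uniform. Of 20 measured, 4 were called lower and 0 higher (median -0.92), where 1.97% of all genes were called lower. By sign alone 17 were lower and 3 higher. Cd37, a tetraspanin of mature B cells, read 3.85, 4.43 and 5.33 against 6.19, 5.78, 7.44 and 7.19 (-2.11 ± 0.40, adjusted p = 0.0036). All 3 arrays were low, and the call held without any single array (highest adjusted p = 0.0259), but not with equal medians and interquartile ranges (adjusted p = 0.0607) or with the mean of its probe sets (-0.98, adjusted p = 0.117). The kinase Blk read 4.45, 8.998 and 7.02 against 8.81, 9.13, 10.67 and 9.84 (-2.79 ± 0.60, adjusted p = 0.0084), and Cd22, a brake on antigen receptor signals, 6.36, 8.53 and 9.31 against 9.55, 9.52, 10.28 and 11.10 (-2.05 ± 0.49, adjusted p = 0.0161). Without Myc/Bcl6-labelled replicate 1, where both were lowest, neither was called (adjusted p = 0.0694 and 0.129), and Blk was also lost without Bcl6 tumour replicate 3 (0.0518) and Cd22 without replicates 3 and 4 (from 0.0564). Without Myc/Bcl6-labelled replicate 1 the list had 1 call and a median of -0.28, and it had 1 and 2 calls without Bcl6 tumour replicates 3 and 4. Ptprc (-1.55 ± 0.57, adjusted p = 0.114), Ighm (-1.48 ± 1.07, adjusted p = 0.492) and Ms4a1 (-0.54 ± 1.03, adjusted p = 0.831) did not pass, and the signs of Ighm and Ms4a1 turned without that array (0.78 and 1.82).

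Signalling from the B-cell receptor showed 3 of 16 measured genes lower, 0 higher and a median of -1.30, where 1.97% of all genes were called lower. The phosphatase Ptpn6 (SHP-1), which dampens receptor signals in white blood cells, read 5.44, 7.27 and 7.86 against 9.998, 8.17, 10.35 and 10.07 (-2.79 ± 0.50, 6.92-fold, adjusted p = 0.00264). Its groups did not overlap, and it was called without any single array (highest adjusted p = 0.0174) and with equal medians and interquartile ranges (adjusted p = 0.0198). The kinase Prkcb read 4.20, 7.08 and 7.87 against 7.39, 8.60, 10.47 and 10.29 (-2.80 ± 0.62, adjusted p = 0.01), but not without Bcl6 tumour replicate 3, replicate 4 or Myc/Bcl6-labelled replicate 1 (adjusted p = 0.0561 to 0.0825). Btk, a kinase of the same pathway that also counts in the B-lineage list, fell by 1.52 ± 0.43 (adjusted p = 0.0404) and was lost without any of 5 arrays (0.0803 to 0.2). The count of 3 was 7 without Bcl6 tumour replicate 2, and 1 without replicate 3, replicate 4 or Myc/Bcl6-labelled replicate 1. Among 11 measured germinal centre genes 2 were called lower and 0 higher, beside the same 1.97% of all genes called lower. Irf8, a transcription factor of B cells and myeloid cells, read 5.74, 7.92 and 7.94 against 9.30, 8.98, 11.48 and 10.47 (-2.86 ± 0.52, adjusted p = 0.00264). It did not overlap and was called without any single array (highest adjusted p = 0.021). Lmo2, a cofactor high in germinal centre cells (10.01 to 10.66), read 5.68, 6.16 and 5.77 against 7.94, 6.24, 8.59 and 8.98 (-2.07 ± 0.55, adjusted p = 0.0295), and was lost without any of 5 arrays (0.0537 to 0.124).

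Of 16 NF-kB genes 5 were called lower and 0 higher, with a median of -1.33, where 1.97% of all genes were called lower. By sign alone 13 were lower and 3 higher. The inhibitor Nfkbie, itself a target of the pathway, read 4.34, 6.01 and 6.18 against 8.64, 7.30, 8.89 and 8.69 (-2.87 ± 0.64, adjusted p = 0.0105), and the subunit Nfkb2 5.39, 5.82 and 4.79 against 6.80, 6.41, 7.30 and 7.50 (-1.67 ± 0.38, adjusted p = 0.0113). For both, every Myc/Bcl6-labelled array was below every Bcl6 array, but with the mean of its probe sets Nfkb2 differed by -0.64 and was not called (adjusted p = 0.201). The receptor Cd40, through which T cells stimulate B cells, read 6.65, 6.53 and 8.36 against 8.86, 8.88, 9.91 and 9.14 (-2.02 ± 0.54, adjusted p = 0.032). Cd83, an activation marker (-2.33 ± 0.67, adjusted p = 0.0444), and the adhesion molecule Icam1 (-2.21 ± 0.65, adjusted p = 0.0474) fell too. Each of the 5 calls was lost without 2 to 5 single arrays. Without Bcl6 tumour replicate 3 limma called 0 of the list (8 at an unadjusted p under 0.05), without Bcl6 tumour replicate 4 and without Myc/Bcl6-labelled replicate 1 it had 1 each, and after renewed quantile normalization of the 35 arrays, or with equal medians and interquartile ranges, 2.

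The 10 largest called decreases with no overlap between the groups were in genes of several functions. Serpinb6b, a protease inhibitor, read 4.31, 6.28 and 9.21 in the Myc/Bcl6-labelled arrays and 9.84, 10.10, 11.62 and 10.59 in the Bcl6 tumours (-3.94 ± 0.80, 15.3-fold, adjusted p = 0.0055). Chst1, a sulfotransferase, read 5.70, 3.79 and 7.08 against 10.44, 8.73, 8.09 and 8.53 (-3.42 ± 0.61, adjusted p = 0.00235), and was at 3.29 to 4.92 in Lig4/p53 tumours and 4.56 to 5.76 in germinal centre cells. All 4 Bcl6 tumours and Myc/Bcl6-labelled replicate 3 were thus above both of those groups for Chst1. Nfatc1, a transcription factor that acts after antigen receptor signals, read 3.98, 5.44 and 4.06 against 6.82, 6.76, 8.50 and 8.19 (-3.08 ± 0.57, adjusted p = 0.0029; -1.85, adjusted p = 0.00475, with the mean of its probe sets). Here the Myc/Bcl6-labelled tumours were below Lig4/p53 tumours (6.06 to 7.36) and germinal centre cells (7.99 to 10.11) as well. Glipr1 (-3.38 ± 0.62, adjusted p = 0.00279), Sh3bgrl3 (-3.36 ± 0.60, adjusted p = 0.00235) and the kinase Srpk3 (-3.20 ± 0.66, adjusted p = 0.00564; -1.53 with the mean of its probe sets) fell as well. These 6 genes and H2-Ab1 were called without any single array. Gimap3, a GTPase of lymphocytes (-3.42 ± 0.72, adjusted p = 0.0073), was lost without Myc/Bcl6-labelled replicate 2 (adjusted p = 0.0672). Ly86, a partner of the RP105 receptor (-2.98 ± 0.68, adjusted p = 0.0113), was lost without Bcl6 tumour replicate 3 (0.0616) and Myc/Bcl6-labelled replicate 1 (0.0768), and the sialyltransferase St3gal6 (-3.32 ± 0.81, adjusted p = 0.0195) without any of 5 arrays (0.0514 to 0.0788).

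Of the 5 genes with the smallest p, 4 fell: Cd74 and 3 further genes of white blood cells. Cyba, the membrane subunit of the phagocyte oxidase, read 6.53, 5.60 and 5.99 against 8.43, 7.46, 9.02 and 9.36 (-2.53 ± 0.38, 5.78-fold). Its Myc/Bcl6-labelled arrays lay within 1 log2 unit of each other, and Lig4/p53 tumours read 8.93 to 10.04. The proton channel Hvcn1 read 5.39, 7.18 and 7.56 against 8.996, 8.65, 10.41 and 9.87 (-2.77 ± 0.45), and Sash3, a lymphocyte adaptor, 5.53, 7.82 and 6.43 against 9.74, 8.26, 10.04 and 9.33 (-2.75 ± 0.45). The adjusted p of each was 0.00191. All 3 were called without any single array, and Cyba and Sash3 also without Myc/Bcl6-labelled replicates 1 and 2 together (adjusted p = 0.0144 and 0.00834). With equal medians and interquartile ranges Cyba (0.0432) and Sash3 (0.0358) were called and Hvcn1 was not (0.113).

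Most called increases were highest in Myc/Bcl6-labelled replicate 2. Of 240 called increases, 171 had that replicate as the highest of the 3 arrays, and in 96 that array exceeded both others by more than 2 log2 units. In 149 of these 240 increases replicates 1 and 3 were both above all 4 Bcl6 tumours, but the 240 were chosen as higher in these same arrays. Over all 12393 genes, all 3 arrays were above all 4 Bcl6 tumours in 607 (4.9%). Without replicate 2, 53 of the 240 were still called. Among the 10 largest were Apoa1, the main protein of HDL (5.92, 12.28 and 6.07 against 4.08, 5.11, 4.19 and 3.77; 3.80 ± 0.81, adjusted p = 0.00794), and Fgb, a fibrinogen chain (3.85, 11.77 and 3.87 against 2.82, 2.75, 2.60 and 3.28; 3.63 ± 0.94, adjusted p = 0.0261). The same pattern held for the plasma proteins Itih4 (3.60), Ambp (3.59) and Apoc3 (3.11), the liver enzymes Ugt2b5 (3.42) and Hpd (3.13), and the iron sensor Tfr2 (3.57), which read 11.55 in replicate 2 and 3.08 to 5.73 in the other 6 arrays. None of these 8 was called without that array (adjusted p = 0.0633 for Apoa1 to 0.329 for Ambp), and all but Apoa1 were also lost without Bcl6 tumour replicate 3 or 4. Of 14 hepatocyte genes 4 rose (Apoa1, Fgb, Ahsg and Apoh), with a median of 3.13, where 1.94% of all genes were called higher. Without replicate 2 limma called 0 (2 at an unadjusted p under 0.05) and the median was 0.27. The count of 4 was 1 without Bcl6 tumour replicate 3 or replicate 4, 2 without replicate 1 and 8 without replicate 2, and 11 and 12 without Myc/Bcl6-labelled replicates 1 and 3. Alb itself missed the threshold (3.60 ± 1.12, adjusted p = 0.0599).

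A few other named genes were high in all 3 arrays. Meg3, an imprinted long non-coding RNA, read 7.86, 7.76 and 7.18 in the Myc/Bcl6-labelled arrays and 3.90, 5.26, 4.12 and 5.01 in the Bcl6 tumours (3.02 ± 0.50, 8.13-fold, adjusted p = 0.00191), and with the mean of its probe sets the difference was 1.16 (adjusted p = 0.0225). The 3 arrays lay within 1 log2 unit, and were above all Lig4/p53 tumours (3.49 to 6.75) and germinal centre cells (3.63 to 4.23). Slc40a1 (ferroportin), the iron exporter of macrophages and other cells, read 7.12, 9.13 and 8.58 against 4.66, 5.19, 3.78 and 6.75 (3.18 ± 0.62, adjusted p = 0.00419). Cpeb3, an RNA-binding protein picked after its values were seen, read 8.52, 7.21 and 7.22 against 5.25, 5.12, 4.36 and 5.23 (2.66 ± 0.44, adjusted p = 0.00191; 1.38, adjusted p = 0.0435, with the mean of its probe sets). These 3 were called without any single array (highest adjusted p = 0.032, for Slc40a1). Without replicate 2, 85 genes were called higher, 53 of them among the 240.

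**Figure D4:**
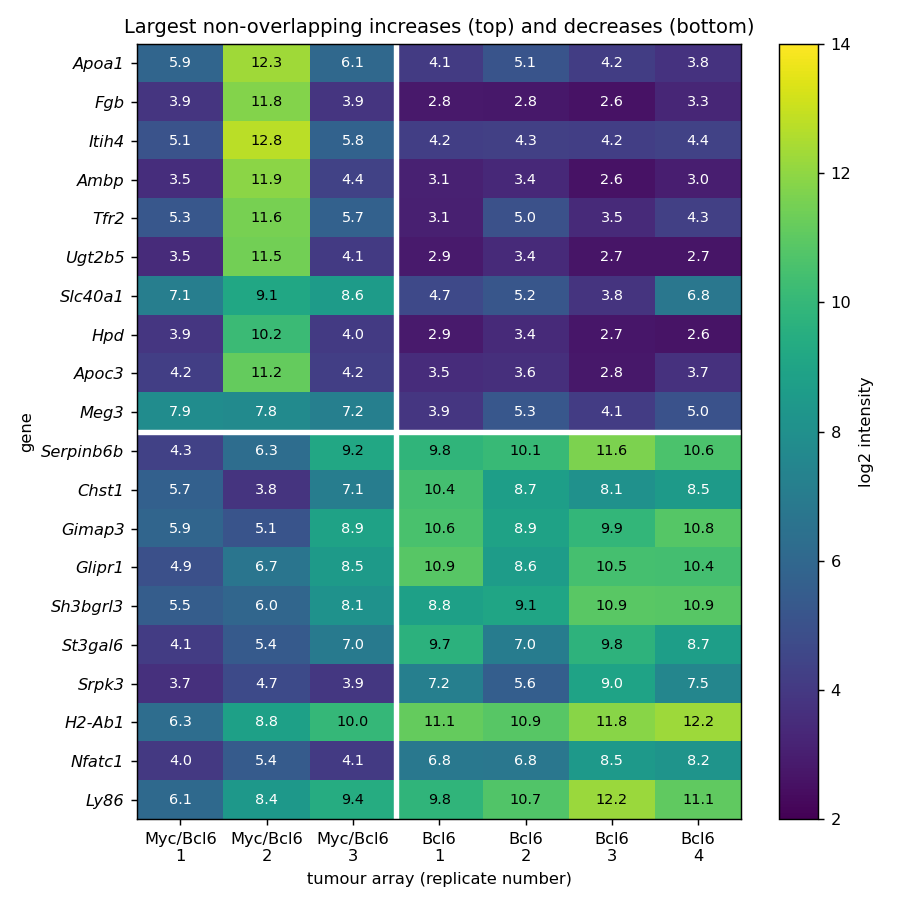
The 10 largest called increases (top) and decreases (bottom) with no overlap between the groups, 1 gene a row, with the log2 intensity of each of the 7 arrays (columns, replicate numbers below) as colour and number. In 8 of the 10 increases replicate 2 of the Myc/Bcl6-labelled arrays reads 10.2 to 12.8 and the others 2.6 to 6.1, while Slc40a1 and Meg3 are high in all 3.

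Immunoglobulin genes differed from tumour to tumour. Ighm, read by the brightest of its 11 probe sets, was 5.61, 11.74 and 13.03 in the Myc/Bcl6-labelled arrays and 7.65, 12.95, 12.39 and 13.44 in the Bcl6 tumours, so that 1 array of each group was low. The low arrays had another heavy chain: Myc/Bcl6-labelled replicate 1 had Igha at 12.19, and Bcl6 tumour replicate 1 had Ighg3 at 13.36. Igha was also high in Bcl6 tumour replicate 3 (12.64), where Ighm was high as well, and ranged from 5.00 to 9.94 in the other 5. Ighg3 was 4.00 to 9.76 outside Bcl6 tumour replicate 1. The probe sets named Ighm disagreed, since several of them were high in Myc/Bcl6-labelled replicate 3 alone. The highest of these read 11.75 there and 2.85 to 5.44 in the other 6 arrays. Their group differences (1.71 to 3.77) had the opposite sign to that of the brightest probe set (-1.48). The kappa locus probe set Igk was at 10.63 to 13.37 in all 7, and the variable segment probe set Igkv8-30 at 11.05 to 13.23. Igkv6-15 was at 10.43 in Myc/Bcl6-labelled replicate 1 and 3.23 to 4.99 in the others. That array thus had immunoglobulin transcripts while Ptprc and Ms4a1 were low. It also had the highest values of Eaf2 (11.20 against 7.17 to 9.57), Bhlha15 (8.95 against 4.78 to 7.34) and Xbp1 (10.68 against 7.56 to 10.16), genes that are high in antibody-secreting cells, but the lowest of Jchain, the chain that joins secreted antibodies (7.13 against 8.42 to 12.15), and of Derl3 (4.64 against 4.68 to 8.17). The mean of 14 plasma cell genes was 7.61 in that array, 6.36 and 6.67 in the other Myc/Bcl6-labelled arrays and 6.67 to 8.13 in the Bcl6 tumours. That array also had the highest value of the epithelial adhesion gene Epcam (7.85 against 3.42 to 5.21). The mean of 12 epithelial genes, however, was 4.61 there, inside the range of the other 6 arrays (3.84 to 5.26). Each Igkv and Ighm probe set can read related segments, so their gene names are uncertain.

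**Figure D5:**
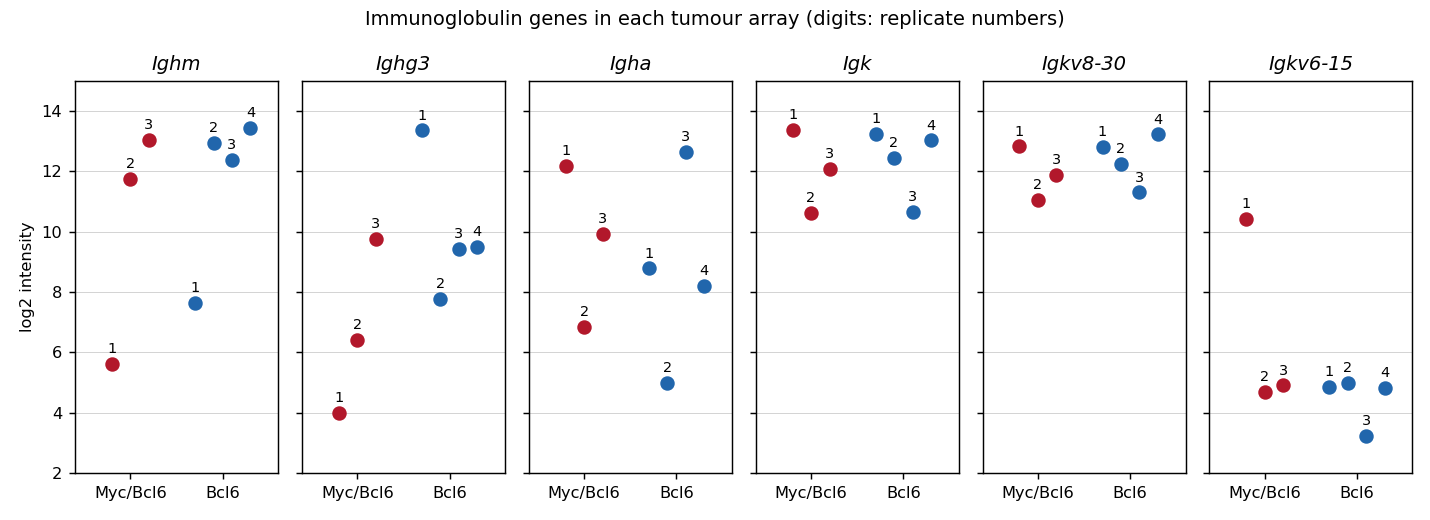
Each panel plots the log2 intensity (y axis) of 1 immunoglobulin gene in every Myc/Bcl6-labelled (red) and Bcl6 (blue) array, with replicate numbers. Ighm is low in replicate 1 of both groups (5.61 and 7.65), where Igha (12.19) and Ighg3 (13.36), respectively, are high.

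Of 14 measured plasma cell genes, 1 was called lower and 0 higher (median -0.59), where 1.97% of all genes were called lower. Derl3, a protein of endoplasmic reticulum quality control, read 4.64, 4.68 and 6.79 against 8.17, 6.85, 7.01 and 7.42 (-1.99 ± 0.55, adjusted p = 0.0355), and was lost without any of 5 arrays (adjusted p = 0.0698 to 0.166). The receptor Tnfrsf13b (TACI) read 6.39, 5.41 and 5.51 against 8.09, 6.34, 9.30 and 8.74 (adjusted p = 0.052; 0.0492 in the fit on means of probe sets), and Txndc5, a folding enzyme, 9.93, 5.69 and 5.77 against 9.55, 7.94, 10.11 and 10.05 (adjusted p = 0.0551; 0.274 with the mean of its probe sets). Tnfrsf17 (BCMA) was higher in all 3 Myc/Bcl6-labelled arrays but dim (5.08, 5.46 and 4.79 against 3.70, 4.73, 3.50 and 3.58, adjusted p = 0.0649).

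Genes that Myc is known to drive held no call. Over all genes, 2327 of 12393 had an unadjusted p under 0.05, the level counted for the lists here. Of 29 measured genes of ribosome biogenesis and growth, limma called 0 (1 at an unadjusted p under 0.05, median 0.11). Their mean level was 9.20, 8.34 and 6.68 in the Myc/Bcl6-labelled arrays and 8.21, 7.05, 8.40 and 8.51 in the Bcl6 tumours, with replicate 1 above and replicate 3 below all 4 Bcl6 arrays. Lig4/p53 tumours, where Myc was high, had 9.43 to 9.90. Nucleophosmin (Npm1), a nucleolar protein, showed this in single values: 11.57, 10.62 and 7.78 against 9.59, 8.87, 10.85 and 10.68. Limma also called 0 of 19 mitosis genes (median -0.41), 25 DNA replication genes (-0.19) and 16 genes of G1 cyclins and inhibitors (-0.53), with 1, 2 and 3 at an unadjusted p under 0.05. It called 0 of 11 genes of Myc and its partners (-0.005), 16 Bcl6 targets (-0.61) and 14 early B-cell genes (-0.11), with 3, 4 and 1 at that level. Likewise 0 of 29 genes of the endoplasmic reticulum (-0.32), 26 of the respiratory chain (-0.07) and 14 of the PRC2 and Yy1 complexes (0.01) were called, with 1 each at an unadjusted p under 0.05. The proliferation marker Mki67 read 11.32, 10.32 and 10.76 against 11.74, 10.41, 11.52 and 11.04. Cdc20, an activator of the anaphase-promoting complex picked after its values were seen, was high in Myc/Bcl6-labelled replicate 1 (11.57). It read 8.77 and 8.71 in replicates 2 and 3 and 7.07 to 8.64 in the Bcl6 tumours.

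Single genes of other lists passed, where 3.91% of all genes were called in either direction. Bbc3 (Puma), a killer protein of the Bcl2 family and a p53 target, was the 1 called member of both lists to rise: 6.95, 5.62 and 7.12 against 5.60, 5.43, 4.29 and 4.43 (1.63 ± 0.37, adjusted p = 0.0113). Mdm2, which marks p53 for destruction and is also its target, read 6.33, 5.97 and 6.72 against 7.28, 6.36, 9.63 and 9.99 (-1.97 ± 0.55, adjusted p = 0.0377). The p53 target list (18 measured) thus had 1 call in each direction and a median of -0.11. Bbc3 was lost without Bcl6 tumour replicates 3 or 4 (adjusted p = 0.06 and 0.0561), and Mdm2 without any of 4 arrays (0.0626 to 0.182). With the mean of all probe sets Mdm2 was not called (-1.60, adjusted p = 0.0868), which leaves 1 p53 target higher and 0 lower. The lactate dehydrogenase subunit Ldhb rose (9.12, 7.79 and 4.82 against 4.73, 3.52, 6.09 and 5.72; adjusted p = 0.0411), with replicate 3 inside the range of the Bcl6 tumours. It was lost without any of 5 arrays (0.0619 to 0.264), and the other 14 glycolysis genes were not called. Gbp2, induced by interferon (-2.25 ± 0.60, adjusted p = 0.0295), the immediate early gene Atf3 (-1.72 ± 0.50, adjusted p = 0.0444) and the homing integrin Itgb7 (-1.88 ± 0.42, adjusted p = 0.0112) were the single calls of lists of 19, 18 and 12 measured genes. Each of these 3 was lost without 3 to 5 arrays (0.0578 to 0.209).

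Lists of other cell types held few calls, where 3.91% of all genes were called in either direction. Among 20 macrophage and dendritic cell genes, the scavenger receptor Cd163 rose (5.64, 6.56 and 4.84 against 3.58, 4.39, 2.60 and 3.48; 2.17 ± 0.61, adjusted p = 0.0387) and lysozyme (Lyz2) fell (7.57, 8.63 and 10.33 against 10.63, 10.86, 11.59 and 12.10; -2.45 ± 0.66, adjusted p = 0.032). Defining genes of macrophages were high in both groups, as Csf1r read 10.39, 11.60 and 12.92 against 11.21, 12.63, 11.97 and 12.55. Of 22 matrix genes Col6a1, a collagen chain, fell (4.95, 4.25 and 4.39 against 5.79, 6.11, 7.17 and 5.21; -1.54 ± 0.32, adjusted p = 0.00636) and was called without any single array, while Postn rose (1.49 ± 0.41, adjusted p = 0.0356). Pdpn, a stromal surface protein (-2.10 ± 0.58, adjusted p = 0.036), fell among 9 follicular stroma genes, and Cd3g, a chain of the T-cell receptor complex (4.87, 4.05 and 5.59 against 6.30, 6.47, 5.88 and 7.29; adjusted p = 0.0458), among 16 T-cell genes. Pparg (2.01 ± 0.47, adjusted p = 0.0153) rose among 9 adipocyte genes and Myl1 (1.23, adjusted p = 0.0333) among 13 muscle genes. Apart from Col6a1, these calls were each lost without 2 to 5 arrays (adjusted p = 0.0561 to 0.223). Limma called 0 of 11 NK-cell, 9 erythroid, 16 endothelial and 12 epithelial genes (3, 2, 4 and 6 at an unadjusted p under 0.05), and 0 of 13 granulocyte, 7 platelet and 7 early T-cell genes (0 in each). Over all genes, 2327 of 12393 had an unadjusted p under 0.05.

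The 2 groups were not compact. Pearson correlation over all 12393 genes, which are not independent replicates, was 0.83 to 0.957 between Bcl6 tumours, 0.745 to 0.83 between Myc/Bcl6-labelled arrays and 0.724 to 0.883 between the groups. Over 904 genes that differed between the normal stages, the correlation with the mean of germinal centre B cells was 0.632 to 0.716 in the Bcl6 tumours, the highest of the 6 stages in each. It was 0.473, 0.457 and 0.644 in the Myc/Bcl6-labelled arrays, where it was the highest stage in replicates 2 and 3. In replicate 1 the highest was the plasma cell group (0.491), close to plasmablasts (0.475) and germinal centre cells (0.473). The plasma cell arrays themselves had Sdc1 (CD138), a plasma cell surface protein, at 3.88 to 5.71, below germinal centre cells (6.31 to 7.42). Lig4/p53 tumours had 0.656 to 0.737 with germinal centre cells.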

How the data were processed

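Per the submitters' processing notes the authors used RMA, and the deposited values are on the log2 scale, 1 per probe set and array. Tripure RNA was amplified with the NuGen Ovation V2 kit for Affymetrix Mouse 430A2 arrays, per the labels' protocols. Which arrays were normalized together is not given in the sources used here. Of 22690 probe sets, 64 were controls, 20380 had 1 gene symbol, 691 several and 1555 none. For genes with several probe sets the one with the highest mean was used, giving 12393 genes. Arrays give no counts, so their number limits the precision.

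Groups came from the titles. limma (group means of all 35 arrays, contrast, empirical Bayes) gave differences, and a gene was called where its p, adjusted by Benjamini and Hochberg's method, was under 0.05. Named genes were the 10 largest increases and decreases among called genes with no overlap between the arrays (no immunoglobulin, T-cell receptor or sex-linked genes), the 4 members (or fewer) with the lowest p in each described list, the label and class II genes, immunoglobulin genes and the 5 smallest p. The rule chose Apoa1, Fgb, Itih4, Ambp, Tfr2, Ugt2b5, Slc40a1, Hpd, Apoc3 and Meg3 among the increases. Some genes, among them Cpeb3, Cdc20, Eaf2 and Bhlha15, were added after their values were seen. The comparison, the lists and the members were chosen with earlier results of these data known. The fit was tested on simulated data. Alternatives covered probe sets, dim genes, scaling, prior, weights, arrays fitted, covariates, the replicate number as a block and arrays left out; leaving out 2 arrays together was added after the data were seen. The number carried by 2 samples did not pair them (correlation of deviations 0.19, -0.15 and -0.12). Promoters were read from RefSeq (GRCm38.p6). R 4.3.3, limma 3.58.1, Python 3.11.15, numpy 2.4.6, pandas 2.3.3 and matplotlib 3.10.9 were used.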

Additional observations from a re-analysis of the deposited data

Results flagged for a closer look

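In 7 of the genes named, 1 Bcl6 tumour array stood far from the other 3, by Dixon's test. Chance gives about 1 in 20 such groups, and 83 genes were examined. In 5 of the 7 the array was Bcl6 tumour replicate 2, the array with the narrow spread of values: it was low in Psmb9 (7.42), Icam1 (6.67), Nfkbie (7.30) and Ptpn6 (8.17), and high in Tnfrsf17 (4.73). For these genes the values of that array lay towards the Myc/Bcl6-labelled ones. Bcl6 tumour replicate 3 was low in Cpeb3 (4.36) and Apoc3 (2.79). Whether the narrow spread accounts for the pattern was not tested.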

How the results depend on the processing

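The count of 484 called genes stayed within 1.5 times of that value under 11 of 23 alternatives, among them the mean of all probe sets, the filter on dim genes, renewed quantile normalization of 35 arrays, equal medians, the trended prior, array weights and both covariates. It was 104 with 13 tumour arrays, and 0 with the 7 arrays alone and after renewed quantile normalization of these 7 (1218 and 1110 genes at an unadjusted p under 0.05). Leaving out 1 array gave 119 to 1386. Without Bcl6 tumour arrays of narrow spread, which is replicate 2 alone, it was 1386. Without replicate 2 of both groups it was 1093, and without Myc/Bcl6-labelled replicates 1 and 2 it was 208, where 1 array remains and its spread is taken from the other groups; both were chosen after the data were seen. With the replicate number as a block in the 7 arrays limma called 0 genes (614 at an unadjusted p under 0.05); the numbers do not pair the samples. All 66 called genes named kept their direction under every alternative in which they were tested (Myl1 was not in the dim-gene filter), except H2-Aa (0.18) and Ldhb (-0.20) without Myc/Bcl6-labelled replicates 1 and 2. Genes not called changed sign: Bcl6 with all probe sets (0.007), equal interquartile ranges (0.04), the interquartile covariate (0.074), with single arrays left out (-1.69 to 0.77) and without replicates 1 and 2 (1.94); Ighm with all probe sets (0.91), with single arrays left out (-2.93 to 0.78) and without both (1.43); Ms4a1 with equal interquartile ranges (0.14), with single arrays left out (-1.76 to 1.82) and without both (1.73); Ptprc (0.17) and B2m (0.10) without both; and Ifi30 (0.062) and B2m (0.75) with equal interquartile ranges. Of the 66 calls, 63 held with the mean of all probe sets (not Cd37, Nfkb2 and Mdm2), 38 with equal medians and interquartile ranges, 19 with 13 tumour arrays and 35 without Myc/Bcl6-labelled replicate 2.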

Other observations

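Transcripts of Y-linked genes differed between arrays of both groups. Eif2s3y read 10.70 in Bcl6 tumour replicate 1 and 9.21 in Myc/Bcl6-labelled replicate 2, and 3.21 to 4.60 in the other 5 arrays. Epithelial keratins were high in Myc/Bcl6-labelled replicate 2 alone, with Krt8 at 9.77 and Krt18 at 9.20, beside 3.38 to 4.63 and 3.33 to 5.43 in the other 6 arrays. Vsig4, a receptor of liver macrophages, read 8.96 in that array and 2.71 to 4.98 elsewhere.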
